A study of Mus musculus with 24 samples.

Results

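Expression of 9 genes of natriuretic peptide and cyclic GMP (cGMP) signalling was examined in the mouse kidney after myocardial infarction (MI). The members are the receptors Npr1, Npr2 and Npr3, the protease Corin, the soluble guanylyl cyclase subunits Gucy1a1 and Gucy1b1, the cGMP-dependent kinases Prkg1 and Prkg2, and the phosphodiesterase Pde5a. They were chosen by name, as a pathway, and are 9 of the 56941 genes in the table of counts. All mice were male C57BL/6J wild-type animals aged 8 to 11 weeks at surgery. In the MI mice the left anterior descending coronary artery was ligated permanently, without reperfusion, and the kidneys were collected 5d or 28d later. Sham-operated mice went through surgery without the ligation, and their kidneys, collected after 5d, served as controls for both times. The time since surgery and the infarction can therefore not be told apart in the comparison of 28d post-MI with sham. Between 28d and 5d post-MI, the course after infarction likewise cannot be told apart from time since surgery and age. Whole-kidney RNA was sequenced by MACE, which reads the 3′ ends of mRNA and marks molecules with unique molecular identifiers. The labels list 24 kidneys, and the counts of 22 could be assigned to a sample, 8 sham, 8 of the 5d group and 6 of the 28d group, each from a different mouse.

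Atrial and B-type natriuretic peptide are hormones of the heart that act on the kidney through NPR-A, the product of Npr1, a receptor with its own guanylyl cyclase. In the kidney this receptor promotes filtration and the excretion of sodium, while NPR-C, the product of Npr3, binds the peptides and removes them. Nitric oxide produces cGMP by another route, through the soluble guanylyl cyclase, and the cGMP of both routes activates the kinases and is broken down by phosphodiesterases.

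Total counts per kidney ranged from 2280618 to 3786275. At this depth, 12780 of the 30116 genes with a count could be tested, among them 7 of the 9 members, all except Prkg1 and Prkg2. Levels are given in CPM, counts scaled to a common library total after normalisation by TMM, a method of edgeR. These 3′ counts were not divided by gene length, and the values are used to compare kidneys and not genes. A fold change is the log2 fold change (log2FC) of edgeR with its standard error (SE), and a gene was called a DEG when the adjusted p-value of edgeR's quasi-likelihood test was under 0.05. Markers of the proximal tubule summed to between 6063 and 9038 CPM in each kidney. Markers of the adrenal cortex were above 10 CPM in 3 kidneys, with 976 CPM in the highest and 85.2 CPM in the lowest of them, against at most 4.27 CPM in the other 19, although Cyp11b2 was at 0. These are sham replicates 2 and 6 and 5d replicate 5, and values without them are given for Npr1, Pde5a, Pde9a, Rgs2, the ratios and Ren1.

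None of the 7 tested members was a DEG in any of the 3 comparisons. The share of all tested genes called was 0.0704% at 5d post-MI against sham, 0.0235% at 28d post-MI against sham and 0.415% at 28d against 5d post-MI. DESeq2, which called 0.12%, 0.11% and 0.302% of all genes with a count in these comparisons, and limma's voom, which called 0.0391%, 0.0391% and 0.391%, also called 0 members. So did edgeR without the filter on low counts, at 0.266%, 0.312% and 0.531%. At an unadjusted p-value under 0.05, edgeR gave 1 member at 5d post-MI against sham (Npr3, lower), where 3.97% of all tested genes passed on the lower side and 3.92% on the higher. It gave 2 at 28d post-MI against sham, Corin on the higher side with 4.45% of all genes and Gucy1b1 on the lower side with 4.23%. Between 28d and 5d post-MI it gave Npr3 on the higher side, with 5.03% of all genes, and Gucy1b1 on the lower side, with 4.01%. The median log2FC of the 7 members against sham was −0.16 at 5d and −0.07 at 28d post-MI. The medians over all tested genes were 0.00018 and −0.0012. With only 7 genes, each with an SE between 0.11 and 0.23, a shift of the members as a set was not tested. Because both comparisons use the same sham kidneys, their values for a gene are not independent of each other.

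**Figure D1:**
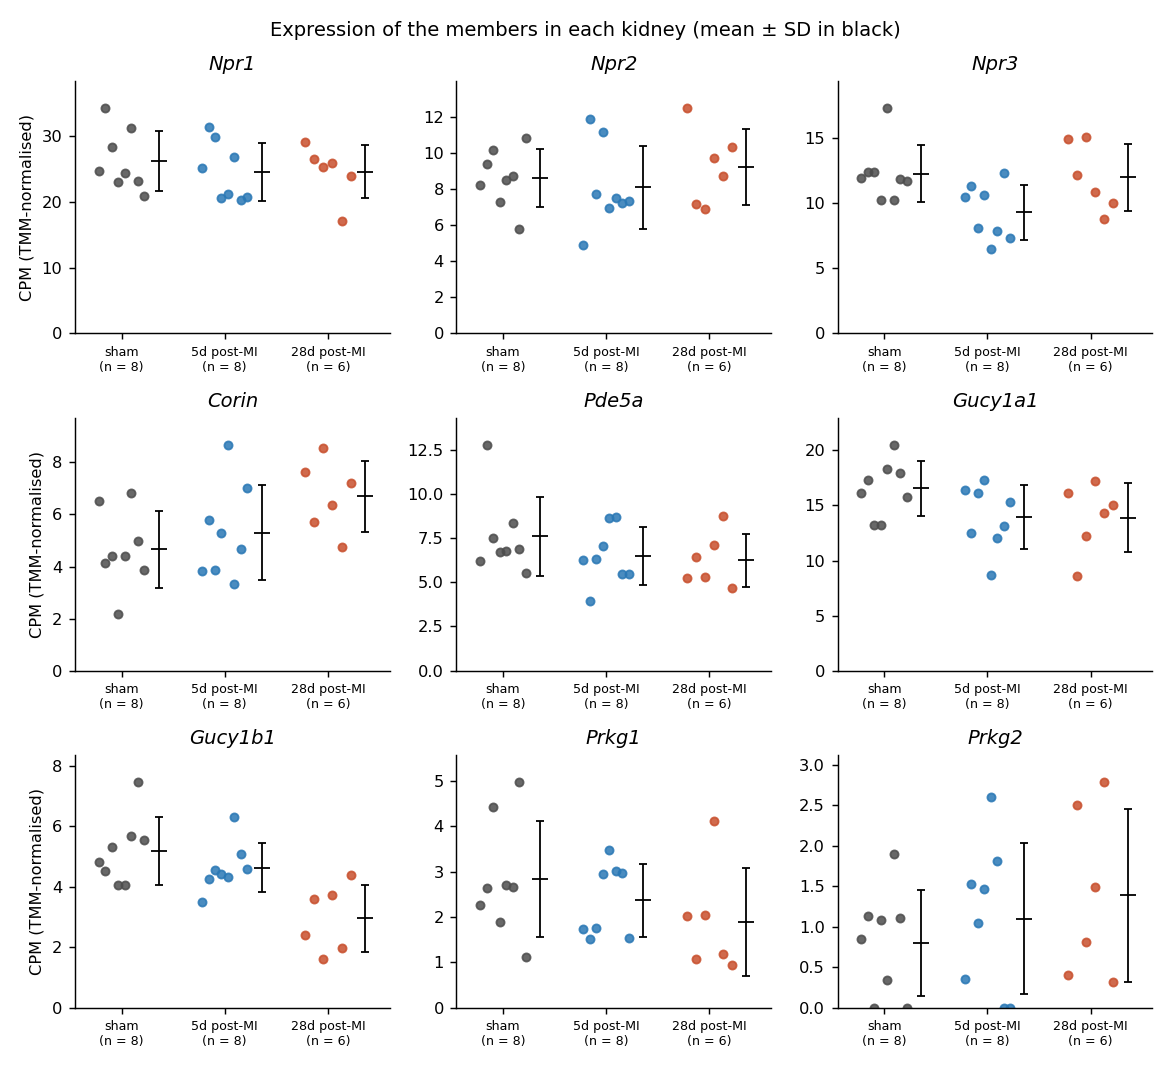
Expression of the 9 members in CPM (vertical axis, from 0) in each kidney, with 1 point per kidney in the sham (n = 8), 5d post-MI (n = 8) and 28d post-MI (n = 6) groups and the mean ± SD in black. The groups overlap in all 9 panels, and for Gucy1b1 5 of the 6 kidneys at 28d post-MI lie below every sham kidney.

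The receptors are described with 300 bases around a start given by RefSeq for GRCm38.p6, from 250 bases before to 50 after it. This start can differ from the gene coordinates given below, which come from another annotation, GENCODE. By those coordinates Npr3 starts at 11907287 on the minus strand. Its window, which ends at 11907322, thus lies wholly before the gene. Windows were found for 8 of the 9 members, all except Prkg2. The windows of Npr1 and Npr3 are shown because these genes encode the signalling and the clearance receptor for the same peptides, and their ratio is compared below. Each is written 5′ to 3′ on the gene's strand, and capitals mark a GC box (GGGCGG) or a CCAAT box (CCAAT) on either strand.
Npr1, chr3:90465817-90466116, minus strand: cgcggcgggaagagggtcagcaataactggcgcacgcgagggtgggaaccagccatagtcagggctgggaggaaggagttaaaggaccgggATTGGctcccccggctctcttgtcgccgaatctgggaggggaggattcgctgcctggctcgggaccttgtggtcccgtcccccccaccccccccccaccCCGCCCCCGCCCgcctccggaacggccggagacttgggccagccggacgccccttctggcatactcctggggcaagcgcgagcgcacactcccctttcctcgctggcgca
Npr3, chr15:11907322-11907621, minus strand: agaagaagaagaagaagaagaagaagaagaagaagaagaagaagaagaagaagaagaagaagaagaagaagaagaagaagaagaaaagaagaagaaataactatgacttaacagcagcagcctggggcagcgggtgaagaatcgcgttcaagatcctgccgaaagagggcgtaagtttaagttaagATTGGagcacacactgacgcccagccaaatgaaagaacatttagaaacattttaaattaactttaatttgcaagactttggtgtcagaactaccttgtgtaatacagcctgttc
The Npr1 window holds 2 GC boxes, which stand next to each other on the opposite strand, and 1 CCAAT box. The Npr3 window holds 1 CCAAT box and no GC box, and begins with a run of AAG repeats. GC content was 69.7% in the window of Npr1 and 39.0% in that of Npr3, against a median of 52.7% over 32851 windows. A GC box is found in 35.7% and a CCAAT box in 37.4% of all these windows. Neither a TATA box (TATAAA), which 13.6% of the windows hold, nor the cAMP response element (TGACGTCA), which 1.79% hold, was found in any of the members' windows. The matches do not overlap each other. A match of letters is not evidence that a factor binds there.

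Npr1 (ENSMUSG00000027931, chromosome 3, 90450591 to 90465866, GRCm38) encodes the receptor for atrial and B-type natriuretic peptide. Its lowest, median and highest levels were 20.8, 24.5 and 34.2 CPM in sham kidneys, 20.3, 23.2 and 31.4 CPM at 5d post-MI, and 17.1, 25.5 and 29.0 CPM at 28d post-MI. The ranges of the groups cover each other almost completely, and no neighbours in the order of the means, sham, 28d and 5d, passed edgeR's test. The log2FC was −0.07 (SE 0.11, 95% interval −0.30 to 0.16) at 5d post-MI and −0.07 (SE 0.12, 95% interval −0.32 to 0.18) at 28d post-MI against sham. Between 28d and 5d post-MI it was −0.00 (SE 0.12). The adjusted p-values of edgeR were 0.928, 0.919 and 0.998. Without the 3 kidneys with adrenal markers, the log2FC against sham had the opposite sign, 0.08 (SE 0.12, edgeR adjusted p = 0.952) in the 5d group and 0.04 (SE 0.12, edgeR adjusted p = 0.975) in the 28d group. With 43 to 103 counts per kidney, Npr1 had the smallest SE of the 7 tested members in each comparison. Its variance between kidneys of a group was 2.22 times that of counting alone (chi-squared per degree of freedom, 19 degrees).

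Npr2 (ENSMUSG00000028469, chromosome 4, 43631935 to 43651244) encodes NPR-B, the receptor for C-type natriuretic peptide. Its lowest, median and highest levels were 5.79, 8.59 and 10.8 CPM in sham kidneys, 4.89, 7.43 and 11.9 CPM at 5d post-MI, and 6.91, 9.23 and 12.5 CPM at 28d post-MI. Here, too, the groups overlap over most of their range, and no neighbours in the order 28d, sham, 5d passed the test. The log2FC was −0.06 (SE 0.17, 95% interval −0.40 to 0.28) at 5d post-MI and 0.12 (SE 0.18, 95% interval −0.25 to 0.48) at 28d post-MI against sham, and 0.17 (SE 0.18) between the times. The adjusted p-values of edgeR were 0.965, 0.913 and 0.852.

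Npr3 (ENSMUSG00000022206, chromosome 15, 11839896 to 11907287) encodes the clearance receptor NPR-C. In sham kidneys its lowest, median and highest levels were 10.2, 11.9 and 17.3 CPM. At 5d post-MI the corresponding levels were 6.50, 9.26 and 12.3 CPM, and 4 of 8 kidneys were below every sham kidney, while the other 4 lay within the sham range. At 28d post-MI they were 8.74, 11.5 and 15.0 CPM, and the group overlapped with both others. The means were 12.2 ± 2.20 (SD, n = 8), 9.29 ± 2.11 (SD, n = 8) and 12.0 ± 2.59 CPM (SD, n = 6) in this order of groups. Neighbours in the order sham, 28d, 5d did not pass the test. Against sham, the log2FC at 5d post-MI was −0.39 (SE 0.15, 95% interval −0.69 to −0.10, edgeR adjusted p = 0.471), a fold of 0.762. Of these kidneys, 7 of 8 were below the sham mean. Between 28d and 5d post-MI the log2FC was 0.35 (SE 0.16, 95% interval 0.03 to 0.68, edgeR adjusted p = 0.513), and at 28d post-MI against sham it was −0.04 (SE 0.15, edgeR adjusted p = 0.980). In 34 alternative fits the log2FC at 5d post-MI stayed between −0.45 and −0.31, the adjusted p-value ranged from 0.327 to 0.999, and Npr3 was not called in any of them.

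The ratio of Npr3 to Npr1 within a kidney uses no library scaling. Because a count is added to each gene, the ratio can still depend on depth where counts are low. As log2 of the counts with 1 count added to each, it was −1.08 ± 0.34 (SD, n = 8) in sham kidneys, −1.38 ± 0.39 (SD, n = 8) at 5d post-MI and −1.03 ± 0.19 (SD, n = 6) at 28d post-MI. The lowest and highest values were −1.57 and −0.49 in sham kidneys, −1.84 and −0.71 at 5d post-MI, and −1.22 and −0.73 at 28d post-MI, so that the groups overlap. In exact permutation tests, two-sided and adjusted over 9 tests of ratios, the difference from sham was −0.30 (p = 0.124, adjusted p = 0.222) at 5d post-MI and 0.05 (p = 0.754, adjusted p = 0.754) at 28d post-MI. The difference of 28d from 5d post-MI was 0.35 (exact permutation p = 0.0646, adjusted p = 0.172). Without the 3 kidneys that held adrenal markers, the same differences were −0.51 (exact permutation p = 0.0233), −0.09 (p = 0.506) and 0.42 (p = 0.0350), before adjustment. The difference at 28d post-MI thus changed its sign. The part of adrenal tissue in this was not tested.

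Corin (ENSMUSG00000005220, chromosome 5, 72300025 to 72504473) encodes the membrane protease that cuts the precursor of atrial natriuretic peptide into the active hormone. Its lowest, median and highest levels were 2.16, 4.41 and 6.82 CPM in sham kidneys, 3.31, 4.97 and 8.66 CPM at 5d post-MI, and 4.77, 6.78 and 8.54 CPM at 28d post-MI. The kidneys at 28d post-MI were all above the sham mean, and 3 of 6 were above every sham kidney, but the groups overlap. In the order 28d, 5d, sham no neighbours passed the test, and neither did 28d against sham. The log2FC at 28d post-MI against sham was 0.53 (SE 0.23, 95% interval 0.07 to 0.99, edgeR adjusted p = 0.501), and at 5d post-MI it was 0.18 (SE 0.22, edgeR adjusted p = 0.897). Between 28d and 5d post-MI it was 0.35 (SE 0.23, edgeR adjusted p = 0.697). Each kidney gave only 8 to 23 counts of Corin, and the variance between kidneys of a group was 1.40 times that of counting.

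**Figure D2:**
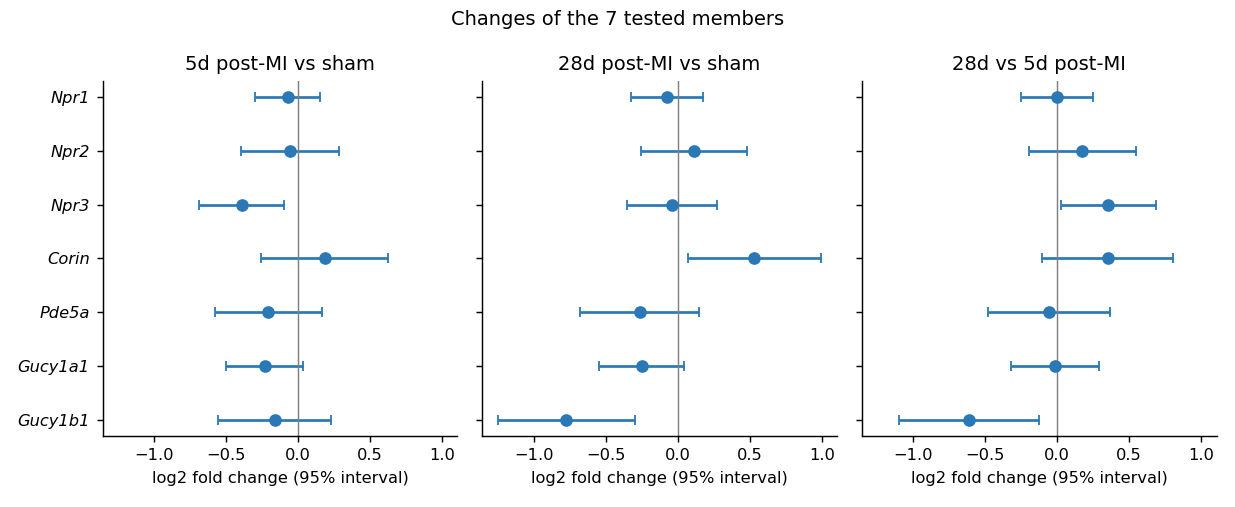
Log2 fold change (horizontal axis) of the 7 tested members in the 3 comparisons, with points for edgeR's estimates and bars for 95% intervals that are not adjusted for the number of genes. The intervals leave out 0 for Npr3 at 5d post-MI against sham, for Corin and Gucy1b1 at 28d post-MI against sham, and for Npr3 and Gucy1b1 at 28d against 5d post-MI, and no adjusted p-value was under 0.05.

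Gucy1a1 and Gucy1b1 encode the alpha and the beta subunit that together form the soluble guanylyl cyclase, the receptor for nitric oxide. The genes lie beside each other on the minus strand of chromosome 3, Gucy1b1 (ENSMUSG00000028005) from 82032006 to 82074689 and Gucy1a1 (ENSMUSG00000033910) from 82092427 to 82145789, 17737 bases apart, with 0 genes wholly between them. Their windows are shown because the subunits are needed in pairs and their ratio is compared below. RefSeq gives a pair of starts for Gucy1a1, of which the more upstream is shown, and capitals mark GC boxes and CCAAT boxes as above.
Gucy1a1, chr3:82145601-82145900, minus strand: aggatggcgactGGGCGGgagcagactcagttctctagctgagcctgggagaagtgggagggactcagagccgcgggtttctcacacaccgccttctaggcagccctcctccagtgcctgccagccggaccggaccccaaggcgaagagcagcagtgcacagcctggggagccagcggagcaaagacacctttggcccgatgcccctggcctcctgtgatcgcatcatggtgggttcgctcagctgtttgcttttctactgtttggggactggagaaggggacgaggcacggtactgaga
Gucy1b1, chr3:82074662-82074961, minus strand: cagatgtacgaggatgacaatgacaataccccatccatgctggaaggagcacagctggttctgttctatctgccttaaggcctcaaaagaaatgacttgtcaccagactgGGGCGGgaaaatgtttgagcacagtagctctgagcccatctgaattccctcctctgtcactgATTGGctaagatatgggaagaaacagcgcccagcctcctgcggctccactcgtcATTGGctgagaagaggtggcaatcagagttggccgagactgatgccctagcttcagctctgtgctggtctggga
The Gucy1a1 window holds 1 GC box and no CCAAT box, and the Gucy1b1 window 1 GC box and 2 CCAAT boxes. GC content was 62.3% and 52.3%.

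Gucy1a1 had lowest, median and highest levels of 13.2, 16.7 and 20.5 CPM in sham kidneys, 8.66, 14.2 and 17.3 CPM at 5d post-MI, and 8.59, 14.7 and 17.2 CPM at 28d post-MI. Both MI groups overlap with sham, and 4 of 8 kidneys of the 5d group and 2 of 6 of the 28d group were below every sham kidney. No neighbours in the order sham, 5d, 28d passed the test. The log2FC against sham was −0.23 (SE 0.13, 95% interval −0.50 to 0.03, edgeR adjusted p = 0.703) at 5d post-MI and −0.25 (SE 0.15, 95% interval −0.54 to 0.05, edgeR adjusted p = 0.662) at 28d post-MI. Between the times it was −0.02 (SE 0.15, edgeR adjusted p = 0.992).

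Gucy1b1 had lowest, median and highest levels of 4.04, 5.06 and 7.45 CPM in sham kidneys, 3.49, 4.48 and 6.32 CPM at 5d post-MI, and 1.63, 3.0 and 4.39 CPM at 28d post-MI. In all 6 kidneys of the 28d group Gucy1b1 was below the means of both other groups, 5 of 6 were below every sham kidney and 3 of 6 below every kidney at 5d post-MI. The means were 5.18 ± 1.11 (SD, n = 8), 4.63 ± 0.81 (SD, n = 8) and 2.96 ± 1.10 CPM (SD, n = 6), in the order sham, 5d and 28d, and no neighbours in this order passed the test. At 28d post-MI the log2FC against sham was −0.77 (SE 0.23, 95% interval −1.25 to −0.30, edgeR adjusted p = 0.267), a fold of 0.585, the largest difference among the 7 tested members. It was −0.61 (SE 0.24, 95% interval −1.10 to −0.13, edgeR adjusted p = 0.383) against 5d post-MI, and −0.16 (SE 0.19, edgeR adjusted p = 0.901) at 5d post-MI against sham. In the 34 alternative fits the log2FC at 28d post-MI against sham stayed between −0.93 and −0.66, and the adjusted p-value between 0.215 and 0.822. The counts were low, 4 to 27 per kidney, and the variance between kidneys of a group was 0.755 times that of counting, which is no more than counting error alone gives.

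The log2 ratio of Gucy1a1 to Gucy1b1 was 1.63 ± 0.29 (SD, n = 8) in sham kidneys, 1.51 ± 0.44 (SD, n = 8) at 5d post-MI and 2.13 ± 0.59 (SD, n = 6) at 28d post-MI. Of the kidneys at 28d post-MI, 4 of 6 were above every sham kidney, whereas the lowest at 28d post-MI, at 1.18, was below all of them. The difference of 28d post-MI was 0.51 from sham (exact permutation p = 0.0626, adjusted over 9 tests p = 0.172) and 0.62 from 5d post-MI (exact permutation p = 0.0453, adjusted p = 0.172). The difference of 5d post-MI from sham was −0.12 (exact permutation p = 0.538, adjusted p = 0.605). With 5 counts added in place of 1, the difference of 28d post-MI was 0.29 from sham (exact permutation p = 0.141) and 0.41 from 5d post-MI (exact permutation p = 0.0852).

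**Figure D3:**
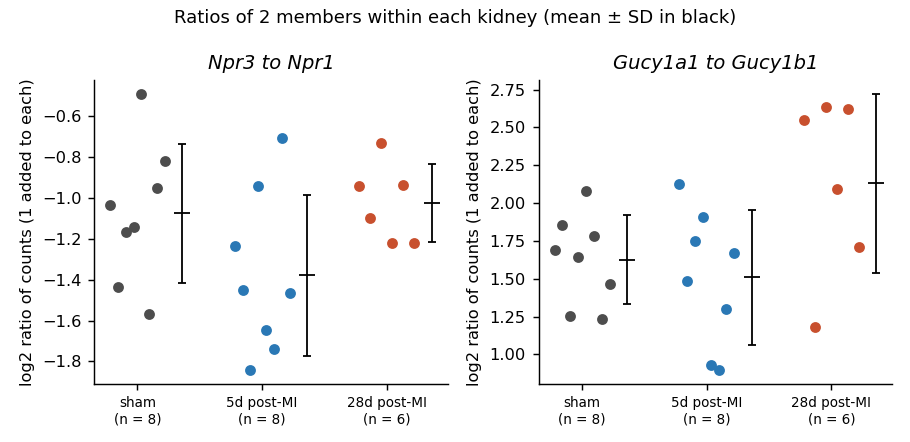
Log2 ratio of counts (vertical axis) of Npr3 to Npr1 and of Gucy1a1 to Gucy1b1, 1 point per kidney, by group, with the mean ± SD in black. The mean ratio of Gucy1a1 to Gucy1b1 is 2.13 at 28d post-MI against 1.63 in sham kidneys, and the groups overlap in both panels.

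Prkg1 and Prkg2 encode the cGMP-dependent kinases, of which the product of Prkg1 relaxes smooth muscle and that of Prkg2 is known to restrain renin. Neither passed the filter on low counts. Prkg1 (ENSMUSG00000052920, chromosome 19, 30564489 to 31765033) had 3 to 18 counts per kidney, with lowest, median and highest levels of 1.11, 2.64 and 4.97 CPM in sham kidneys, 1.52, 2.34 and 3.47 CPM at 5d post-MI, and 0.940, 1.60 and 4.11 CPM at 28d post-MI. Cstf2t, with 1251 counts in all, lies within Prkg1 on the other strand, and the strand setting of the counting is not given in the sources used here. Prkg2 (ENSMUSG00000029334, chromosome 5, 98929773 to 99037351) had 0 to 7 counts per kidney and was at 0 in 4 of 22 kidneys, where up to 3 counts could have been missed by counting alone. Over all 22 kidneys, 3 counts stand for between 0.809 and 1.33 CPM. The highest levels of Prkg2 were 1.90, 2.6 and 2.78 CPM in the sham, 5d and 28d groups. In a fit without the filter, the log2FC at 28d post-MI against sham was −0.57 (SE 0.35, edgeR adjusted p = 0.685) for Prkg1 and 0.74 (SE 0.50, edgeR adjusted p = 0.685) for Prkg2. The groups of both genes overlap, and a difference was not detectable at this depth. The log2 ratio of Prkg2 to Prkg1 differed by 1.17 between 28d post-MI and sham (exact permutation p = 0.0766, adjusted p = 0.172), by 0.44 between 5d post-MI and sham (p = 0.415, adjusted p = 0.533) and by 0.73 between 28d and 5d post-MI (p = 0.257, adjusted p = 0.386). With 5 counts added in place of 1, these differences were 0.64, 0.28 and 0.35 (exact permutation p = 0.0619, 0.217 and 0.232). Without the kidneys with adrenal markers they were 1.48, 0.70 and 0.78 (exact permutation p = 0.0368, 0.262 and 0.261).

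Pde5a (ENSMUSG00000053965, chromosome 3, 122728947 to 122859374) encodes the phosphodiesterase that breaks down cGMP and is the target of sildenafil. Its lowest, median and highest levels were 5.55, 6.84 and 12.8 CPM in sham kidneys, 3.96, 6.29 and 8.73 CPM at 5d post-MI, and 4.70, 5.87 and 8.74 CPM at 28d post-MI. The highest value came from sham replicate 2, the kidney with the most adrenal marker counts, and the remaining kidneys of the 3 groups overlap over most of their range. No neighbours in the order sham, 5d, 28d passed the test. The log2FC was −0.21 (SE 0.18, 95% interval −0.58 to 0.16) at 5d post-MI and −0.26 (SE 0.20, 95% interval −0.68 to 0.15) at 28d post-MI against sham, and −0.06 (SE 0.21) between the times. The adjusted p-values of edgeR were 0.845, 0.780 and 0.971. These differences from sham depended on sham replicate 2, without which they were −0.07 and −0.13. Without all 3 kidneys with adrenal markers they were −0.04 (SE 0.19) and −0.08 (SE 0.21), and with podocyte markers as a covariate 0.16 (SE 0.24) and −0.07 (SE 0.21).

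The soluble guanylyl cyclase and Pde5a are known from smooth muscle and related cells, whose markers were examined beside them. Markers counted as lower or higher in this paragraph are those with an unadjusted p-value under 0.05 in edgeR. Of all tested genes, 3.97% were lower and 3.92% higher by this measure at 5d post-MI against sham. At 28d post-MI against sham, 4.23% were lower and 4.45% higher. Of 10 markers of smooth muscle, mesangium and pericytes, all 10 were tested, none was a DEG in edgeR, and 6 were lower at 5d post-MI against sham at an unadjusted p-value under 0.05 (median log2FC −0.26). Their summed level ranged from 309 to 376 CPM in sham kidneys, from 272 to 321 CPM at 5d post-MI and from 284 to 361 CPM at 28d post-MI. At 28d post-MI 3 of the 10 were lower against sham (median log2FC −0.11). For 10 endothelial markers the median log2FC was −0.13 at 5d post-MI, with 2 lower, and their sums ranged from 436 to 544 CPM in sham kidneys, from 364 to 509 CPM at 5d post-MI and from 462 to 516 CPM at 28d post-MI. For 10 podocyte markers it was 0.19, with 2 higher, and the sums ranged from 221 to 279 CPM, from 265 to 337 CPM and from 245 to 303 CPM. Of 7 tested adipocyte markers, 4 were lower at 28d post-MI against sham (median log2FC −0.89), with sums from 1430 to 2224 CPM in sham kidneys and from 946 to 2043 CPM at 28d post-MI. This sum includes Pck1 and was not tested as a measure of adipocyte RNA. Its group medians were 1657 CPM in sham kidneys and 1604 CPM at 28d post-MI. All 5 tested brown adipocyte markers were lower there at an unadjusted p-value under 0.05 (median log2FC −2.25), with sums from 25.0 to 382 CPM in sham kidneys and from 15.7 to 97.2 CPM in the 28d group. The 8 markers of interstitial fibroblasts had a median log2FC of −0.33 there, with 1 lower at an unadjusted p-value under 0.05. Their sums ranged from 226 to 323 CPM in sham kidneys and from 187 to 261 CPM in the 28d group. None of these 3 lists held a DEG in edgeR at 28d post-MI against sham. A covariate of smooth muscle markers was added after the data had been seen. With it, the log2FC against sham at 5d and 28d post-MI was −0.08 (SE 0.16) and −0.13 (SE 0.16) for Gucy1a1, in place of −0.23 and −0.25. For Pde5a it was −0.03 (SE 0.23) and −0.11 (SE 0.23), in place of −0.21 and −0.26. In the same fit the log2FC of Gucy1b1 at 28d post-MI against sham was −0.66 (edgeR adjusted p = 0.822), and that of Npr3 at 5d post-MI was −0.41 (edgeR adjusted p = 0.802). Other marker lists were also used as covariates, in the order adipocyte, adrenal, endothelial and podocyte. Against sham, the log2FC of Gucy1a1 was then −0.17, −0.18, −0.17 and −0.31 at 5d, and −0.16, −0.17, −0.24 and −0.29 at 28d post-MI. That of Pde5a was −0.21, −0.09, −0.24 and 0.16 at 5d, and −0.27, −0.09, −0.27 and −0.07 at 28d post-MI. What these changes come from was not tested. In whole-kidney RNA, fewer cells of a type and less RNA per cell cannot be told apart.

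No pair of tested members had a correlation between kidneys with an adjusted permutation p-value under 0.05. Over the 22 kidneys, deviations of log2 CPM from the group mean were compared for the 21 pairs of tested members. The lowest Pearson r was −0.41 for Npr3 and Pde5a (rho −0.34, permutation p = 0.0571 and 0.122) and the highest 0.24 for Npr1 and Npr3 (rho 0.18, permutation p = 0.279 and 0.413). Without the 2 kidneys farthest from the median of the first gene, these values of r were −0.40 and 0.10, and the 21 pairs ranged from −0.43 (Corin and Pde5a) to 0.43 (Npr2 and Gucy1a1). For Gucy1a1 and Gucy1b1, the subunits of 1 enzyme, r was 0.01 (rho 0.04, permutation p = 0.961 and 0.876). The adjusted p-value of r was 0.961 for every pair, and that of rho was at least 0.919. Among 12779 other tested genes, those whose deviations were most like Npr1 were Fgg, Boc and Dpy19l4, with r of 0.81, 0.81 and 0.78. For Npr3 they were C1galt1, Wdr24 and Rpl17-ps8 (r 0.75, 0.72 and 0.71), and for Gucy1b1 Setd7, Myadm and Shld1 (r 0.70, 0.68 and 0.67). Npr2 was most like Zfp961, A730063M14Rik and Gcgr (r 0.76, 0.74 and 0.73), Corin like Dynlt1a, Ten1 and Zcrb1 (r 0.69, 0.68 and 0.68), Pde5a like Limk2, Dennd4a and Zfp260 (r 0.76, 0.73 and 0.73), and Gucy1a1 like Rtf2, Cavin3 and Col5a3 (r 0.79, 0.73 and 0.73). These are the highest of 12779 values for each member, all genes of a kidney share its library and depth, and they are given as a description.

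The ligands of the receptors were almost absent from kidney RNA. Over the 22 kidneys, Nppa, the gene of atrial natriuretic peptide, had 3 counts in all, Nppb, that of B-type natriuretic peptide, had 10, Nppc, that of C-type natriuretic peptide, had 2, and Ostn, whose product binds NPR-C, had 3. None could be tested, so any change in these transcripts was not detectable at this depth. Of the 43 other pathway genes that were listed, 20 could be tested, and the remaining 23 had at most 133 counts in all, with 0 for Gucy2c and Gucy2d. The nitric oxide synthases were also among them, with 35 counts in all for Nos1, 45 for Nos2 and 17 for Nos3.

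Ren1, the gene of renin and a target of cGMP signalling in the juxtaglomerular cells, was the only DEG among these 20 genes, at 28d against 5d post-MI. Its lowest, median and highest levels were 80.8, 142 and 188 CPM in sham kidneys, 178, 242 and 423 CPM at 5d post-MI, and 90.3, 116 and 151 CPM at 28d post-MI. Each of the 6 kidneys of the 28d group was below every kidney of the 5d group, and 7 of 8 kidneys at 5d post-MI were above every sham kidney, while sham and 28d post-MI overlapped. The log2FC of Ren1 was −1.15 at 28d against 5d post-MI (SE 0.20, edgeR adjusted p = 0.00886). Ren1 was a DEG there in all 34 alternative fits, with adjusted p-values from 7.02e-06 to 0.0482. In this comparison the course after infarction and the time since surgery cannot be told apart. At 5d post-MI against sham the log2FC was 0.87 (SE 0.18, edgeR adjusted p = 0.10), which was not called. It was called by DESeq2 (adjusted p = 0.00214), by edgeR without the filter on low counts (adjusted p = 0.0472) and without 5d replicate 1 (adjusted p = 0.0364), and in none of the other 31 of 34 alternatives. At 28d post-MI against sham it was −0.28 (SE 0.20, edgeR adjusted p = 0.765). The variance of Ren1 between kidneys of a group was 38.4 times that of counting. Without the 3 kidneys with adrenal markers the log2FC of 28d against 5d post-MI was −1.18 (edgeR adjusted p = 0.0121), and with the smooth muscle markers as a covariate it was −1.14 (edgeR adjusted p = 0.0130). Of 5 tested markers of red blood cells, 4 were DEGs in edgeR in the same 2 directions, higher at 5d post-MI against sham (median log2FC 1.5) and lower at 28d against 5d post-MI (median log2FC −1.78). Their summed level ranged from 2219 to 4153 CPM in sham kidneys. It ranged from 5000.0 to 19129 CPM in the 5d group and from 1823 to 5151 CPM in the 28d group. The part of these red blood cell markers in the result for Ren1 was not tested, and neither was that of cGMP signalling.

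**Figure D4:**
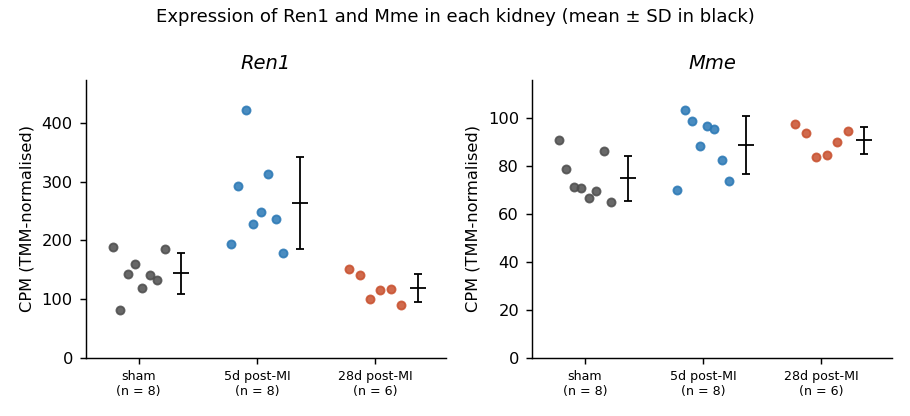
Expression of Ren1 and Mme in CPM (vertical axis, from 0) in each kidney, 1 point per kidney, by group, with the mean ± SD in black. The Ren1 values at 28d post-MI, up to 151 CPM, lie below all values at 5d post-MI, which begin at 178 CPM, and the Mme values of the groups overlap.

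Mme encodes neprilysin, the membrane protease that degrades natriuretic peptides and is plentiful in the brush border of the proximal tubule. Its lowest, median and highest levels were 64.9, 71.0 and 90.7 CPM in sham kidneys, 70.2, 91.9 and 104 CPM at 5d post-MI, and 83.8, 92.0 and 97.8 CPM at 28d post-MI. All 6 kidneys at 28d post-MI were above the sham mean and 3 of 6 above every sham kidney. At 5d post-MI 6 of 8 kidneys were above the sham mean and 4 of 8 above every sham kidney. The log2FC against sham was 0.24 (SE 0.08, edgeR adjusted p = 0.366) at 5d post-MI and 0.28 (SE 0.08, edgeR adjusted p = 0.267) at 28d post-MI. Without the filter on low counts, Mme was called at 28d post-MI (edgeR adjusted p = 0.0494), and it was not called there in the other 33 of 34 alternatives. Proximal tubule markers, of which 7 of 8 could be tested, had a median log2FC of −0.01 at 5d and 0.14 at 28d post-MI against sham, with 2 higher and 1 lower at 5d and 3 higher at 28d at an unadjusted p-value under 0.05. Of all tested genes, 3.92% were higher and 3.97% lower at 5d, and 4.45% higher at 28d.

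**Figure D5:**
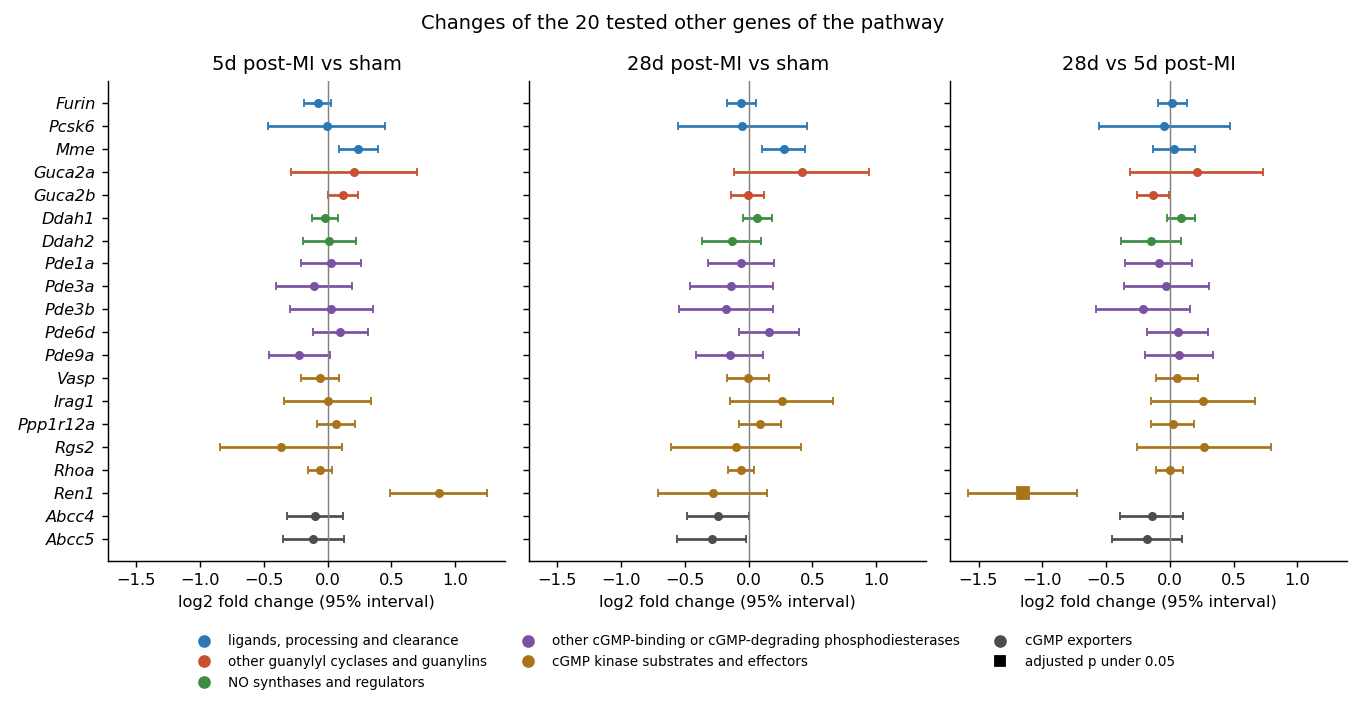
Log2 fold change (horizontal axis) of the 20 tested other genes of the pathway in the 3 comparisons, with edgeR's estimates as points, 95% intervals as bars, colours for the gene lists and a square for an adjusted p-value under 0.05. The only square is Ren1 at 28d against 5d post-MI, at −1.15.

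Apart from Ren1, and Mme without the filter, no gene of the pathway lists was a DEG in edgeR, DESeq2 or voom. The list of ligands, processing and clearance, with 3 of 7 genes tested, held 1 gene (Mme) higher at an unadjusted p-value under 0.05 against sham at each time. On that side 3.92% of all tested genes passed at 5d and 4.45% at 28d post-MI. Of the other guanylyl cyclases and guanylins, only the guanylins Guca2a and Guca2b, peptides that stimulate a guanylyl cyclase, could be tested out of 9 genes. Guca2b had a log2FC of 0.12 (SE 0.06, edgeR adjusted p = 0.604) at 5d post-MI against sham and −0.13 (SE 0.06, edgeR adjusted p = 0.534) at 28d against 5d post-MI. For Guca2a the log2FC at 28d post-MI against sham was 0.42 (SE 0.26, edgeR adjusted p = 0.698). The list of nitric oxide synthases and regulators had 2 of 6 genes tested, among them Ddah1, which degrades an inhibitor of the synthases and had a log2FC of 0.07 (SE 0.06) at 28d post-MI against sham and 0.09 (SE 0.06) against 5d. Among 10 other phosphodiesterases, 5 were tested and none had an unadjusted p-value under 0.05. Pde9a, which is specific for cGMP, had a log2FC of −0.22 (SE 0.12, edgeR adjusted p = 0.666) at 5d post-MI and −0.15 (SE 0.13, edgeR adjusted p = 0.809) at 28d post-MI. Without the kidneys with adrenal markers it was −0.35 (edgeR adjusted p = 0.524) at 5d post-MI.

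The list of kinase substrates and effectors had 6 of 9 genes tested, and Ren1 was its only gene with an unadjusted p-value under 0.05 in any comparison. Rgs2, a regulator of G protein signalling that the kinase activates, had a log2FC of −0.37 (SE 0.23, edgeR adjusted p = 0.748) at 5d post-MI and −0.10 (SE 0.24, edgeR adjusted p = 0.960) at 28d post-MI against sham, and without the kidneys with adrenal markers −0.09 (edgeR adjusted p = 0.981) and 0.16 (edgeR adjusted p = 0.949). Irag1, which links the kinase to calcium release, had a log2FC of −0.00 (SE 0.17) at 5d and 0.26 (SE 0.20, edgeR adjusted p = 0.777) at 28d post-MI against sham. Both genes of the transporters that export cGMP were tested. The log2FC of Abcc5 was −0.29 (SE 0.13, edgeR adjusted p = 0.540) and that of Abcc4 −0.24 (SE 0.12, edgeR adjusted p = 0.585) at 28d post-MI against sham, where all 6 kidneys were below the sham mean for both genes.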

How the data were processed

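Kidney libraries were made by MACE with unique molecular identifiers. The authors trimmed reads with Cutadapt (v4.6), used HTSeq for counting, and deposited whole-number counts per gene without normalisation. The paper names mm10, while the submitters' processing notes list mm39 and Bowtie2, and annotation and strand setting are not given in the sources used here. Coordinates are those of GENCODE M21 on GRCm38 (mm10), in which 51948 of 56941 identifiers have a symbol. Of 48 value columns, 22 of counts were used and 26 were not, 24 of them named tpm and 2 of counts, from a kidney at 5d and a kidney at 28d post-MI, that share a name. Within groups, no pair of libraries agreed within counting error (lowest chi-squared per degree of freedom 1.77).

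Models were fitted in R (4.3.3) by edgeR (4.0.16), with DESeq2 (1.42.0) and limma (3.58.1) as alternatives. Permutation tests used scipy (1.17.1) and numpy (2.4.6) under Python (3.11.15), and plots matplotlib (3.10.9). Genes passed filterByExpr with a minimum of 10 counts, were normalised by TMM and fitted in 1 robust quasi-likelihood model over 22 kidneys with no covariate, tested two-sided and adjusted by Benjamini-Hochberg over 12780 genes. SE is the log2FC divided by the square root of F. Log2 CPM had a prior count of 2. Ratios were compared over every possible split, of which there are 12870 for groups of 8 and 8 and 3003 for groups of 6 and 8, and pairs of members over 100000 permutations. Depth allows a gene with 0 counts up to 3, for counting error only. The script was tested on simulated data.

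The members, gene lists and tests were chosen with earlier results of these data known. Named are the members, the 3 genes most like each, every called gene of the pathway list and the 2 of that list that had the lowest p-values, per direction and comparison, besides genes with too few counts to test. Alternatives were DESeq2, voom, RLE size factors, no filter, the compared groups only, a replicate block, adipocyte, adrenal and podocyte markers as covariates, and each kidney left out. Endothelial and smooth muscle covariates, and leaving out the 3 kidneys with adrenal markers, were added after the data had been seen.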

Additional observations from a re-analysis of the deposited data

Results flagged for a closer look

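Outliers were sought in 57 groups of 19 genes by Dixon's test, in which chance alone marks about 1 group in 20, and 4 groups held a kidney far from the others. For Npr3, sham replicate 5 had 17.3 CPM and the next sham kidney 12.4 CPM. For Pde5a, sham replicate 2 had 12.8 CPM and the next sham kidney 8.34 CPM, and in the same kidney the adrenal markers summed to 976 CPM. For Prkg1, 28d replicate 4 had 4.11 CPM and the next kidney of its group 2.03 CPM. For Guca2a, 5d replicate 8 had 1.69 CPM, below the next at 3.14 CPM. The change of Ren1 against sham differed between the times, since its log2 fold change of 28d against 5d post-MI, −1.15, is the test of that difference.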

How the results depend on the processing

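In each of the 34 alternative fits, 0 members were called. Without the filter, 1 other pathway gene was called at 5d post-MI against sham (Ren1) and 1 at 28d post-MI against sham (Mme), in place of 0. Ren1 was also the 1 gene called at 5d post-MI by DESeq2 and without 5d replicate 1. Over all genes, the 9, 3 and 53 DEGs of the 3 comparisons became 80, 94 and 160 without the filter, 36, 33 and 91 by DESeq2, and 2, 24 and 80 with the replicate block. Leaving out a kidney gave 1 to 38 (38 without 5d replicate 1), 0 to 29 (29 without sham replicate 8) and 41 to 84 (84 without 5d replicate 1). The labels do not say whether replicate numbers stand for a pairing or batch. Deviations of 18 same-numbered pairs correlated between −0.13 and 0.09, which cannot exclude one. With the replicate block, 0 members were called in each comparison and Ren1 kept its call at 28d against 5d post-MI (edgeR adjusted p = 0.0482). For the log2 ratio of Npr3 to Npr1, leaving out the kidneys with adrenal markers gave −0.507 (exact permutation p = 0.0233) at 5d post-MI against sham, the opposite sign at 28d post-MI against sham (−0.0920) and 0.415 (exact permutation p = 0.0350) at 28d against 5d post-MI. Leaving out a kidney at a time gave −0.398 to −0.219, −0.0202 to 0.134 and 0.286 to 0.448. The sign at 28d turned without sham replicate 2, sham replicate 6 or 28d replicate 3. For Gucy1a1 to Gucy1b1, 5 counts added gave 0.285 (exact permutation p = 0.141) at 28d post-MI against sham and 0.414 (exact permutation p = 0.0852) against 5d, and leaving out a kidney gave 0.407 to 0.696 at 28d post-MI against sham and 0.524 to 0.813 against 5d. For Prkg2 to Prkg1 at 28d post-MI against sham, leaving out the kidneys with adrenal markers gave 1.48 (exact permutation p = 0.0368), 5 counts added 0.637 (exact permutation p = 0.0619), and leaving out a kidney 0.873 to 1.39. These p-values are unadjusted, and the cause of the changes was not tested. Depth left 23 of 43 other pathway genes, Prkg1 and Prkg2 untested.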
